A study of Homo sapiens with 12 samples.

Results

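Of the 8826 genes that could be chosen, 25 lost far more of their mRNA in COV362 (Cov) than in KURAMOCHI (Ku) cells after 6 hr of 250 nM THZ1. They were selected on the mean FPKM at 250 nM divided by the mean FPKM in DMSO, here called the share left. A gene could be chosen with a mean DMSO FPKM of at least 5 in both lines and a name not of a small RNA, and it was chosen when its share left in Cov was at most 0.333 times its share left in Ku. From the lowest ratio of shares upward, the genes described here are NBPF16, CCNE2, HBEGF, TRAF5, IL8, CD83, PLEKHG3, FHL2, ICAM1, SLC20A1, CCNL1, MICB, PTX3, CLK1, RSRC2, LIMS3L, GTF2B, MSMP, WDR44, HSPA8, MAP3K14, SERF2-C15ORF63, HBP1 and SCHIP1. In the opposite direction, 104 genes left at most 0.333 times as much in Ku as in Cov.

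Both lines are established human ovarian cancer cell lines, and all 12 libraries, treated or not, came from cells that had not been transduced. Ku cells grew in RPMI and Cov cells in DMEM, each with fetal bovine serum, so line and medium cannot be told apart. Each line was treated for 6 hr with DMSO, the vehicle, with 50 nM THZ1 or with 250 nM THZ1, and 2 replicate libraries of polyA RNA were made for each condition. The study used these libraries to ask how the inhibitor changes the transcriptome of ovarian cancer cells. The study describes treatment of the cells in duplicates before RNA isolation. Neither it nor the labels say that the duplicates came from independently grown cultures. The tests therefore measure the spread between these libraries, which may be technical.

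THZ1 binds CDK7, CDK12 and CDK13 covalently. CDK7 is the kinase of the general transcription factor TFIIH and phosphorylates RNA polymerase II at promoters, and CDK12 and CDK13 phosphorylate the polymerase during elongation. When synthesis is blocked, the mRNA that is left depends on what is still made and on how fast the transcript decays. Neither synthesis nor decay was measured here. Among the chosen genes are several of inflammatory and growth factor signalling. They include IL8, the neutrophil chemokine also called CXCL8, and HBEGF, a membrane-bound ligand of the EGF receptor. Others encode parts of the expression machinery itself, such as GTF2B, which is the initiation factor TFIIB, and CLK1, a kinase that phosphorylates splicing factors.

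The values are FPKM, a read density per length of transcript and depth of library, which were scaled to ERCC spike-in RNAs added per cell count. Depth is unknown, because FPKM hold no read counts. In bulk RNA, fewer cells that hold a transcript and less of it in each cell cannot be told apart. Each line has a table of its own, so levels of Ku and Cov stand on scales that were set separately, whereas a share left within a line does not depend on that scale. The median FPKM of the 14251 active genes, those above 1 FPKM in at least 1 library, lay between 13.4 and 14.4 in the Cov DMSO libraries, between 5.62 and 6.28 at 50 nM and between 3.27 and 3.32 at 250 nM. In Ku it lay between 10.9 and 12.8, between 6.90 and 7.55 and between 2.84 and 3.13. The Müllerian markers PAX8 and SOX17 were present in both lines, at 124 ± 5.33 (SD, n = 2) and 117 ± 5.66 FPKM in Cov and at 136 ± 5.50 and 143 ± 4.86 FPKM in Ku under DMSO. Of 2 serous markers, WT1 was at 0.653 ± 0.125 FPKM in Cov and at 56.8 ± 4.73 FPKM in Ku, and MUC16 was at 5.71 ± 0.718 and at 0.166 ± 0.00944 FPKM. The epithelial keratins KRT8 and KRT18 were at a mean of 792 FPKM or more in both lines, whereas KRT7, KRT19 and EPCAM were at 1355, 221 and 162 FPKM in Cov and at 4.61, 47.6 and 4.13 FPKM in Ku. Among 5 blood genes, PTPRC, CD3E and HBB had a mean of at most 0.235 FPKM in either line, HBA1 was at 0.120 FPKM in Cov and at 0.914 FPKM in Ku, and CD14 was at 0.625 and 1.31 FPKM. Of the mesenchymal genes, VIM was at 1792 FPKM in Cov and 626 FPKM in Ku, and COL1A2 at 42.2 and 0.127 FPKM. COL1A1 was at 3.17 and 2.53 FPKM, COL3A1 at 0.663 and 8.58 FPKM and PDGFRB at 0.259 and 0.242 FPKM. The endothelial genes CDH5, VWF and PECAM1 were at 7.75, 0.600 and 0.338 FPKM in Cov and at 8.23, 2.66 and 0.156 FPKM in Ku.

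In the median, the 25 genes left 11.1% of their DMSO level in Cov and 42.8% in Ku at 250 nM, as the rule requires of such genes. All 8826 genes left 31.5% in Cov and 35.8% in Ku in the median. In Cov, 12 of the 25 genes were under 10% of the DMSO mean at 250 nM, and in Ku the lowest was MAP3K14 at 13.4%, values that the selection used. Of all 8826 genes, 7.56% were under 10% in Cov and 8.60% in Ku. The genes just inside the limit were SCHIP1, HBP1 and SERF2-C15ORF63, with ratios of shares of 0.327, 0.322 and 0.318. Just outside were EXOSC9 at 0.341, FRMD5 at 0.344 and C3orf52 at 0.346. Under DMSO, 11 of the 25 genes were higher in Cov than in Ku on these separately set scales, against 62.7% of all 8826 genes, and the ratio ranged from 0.194 for MSMP to 8.20 for PTX3.

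**Figure D1:**
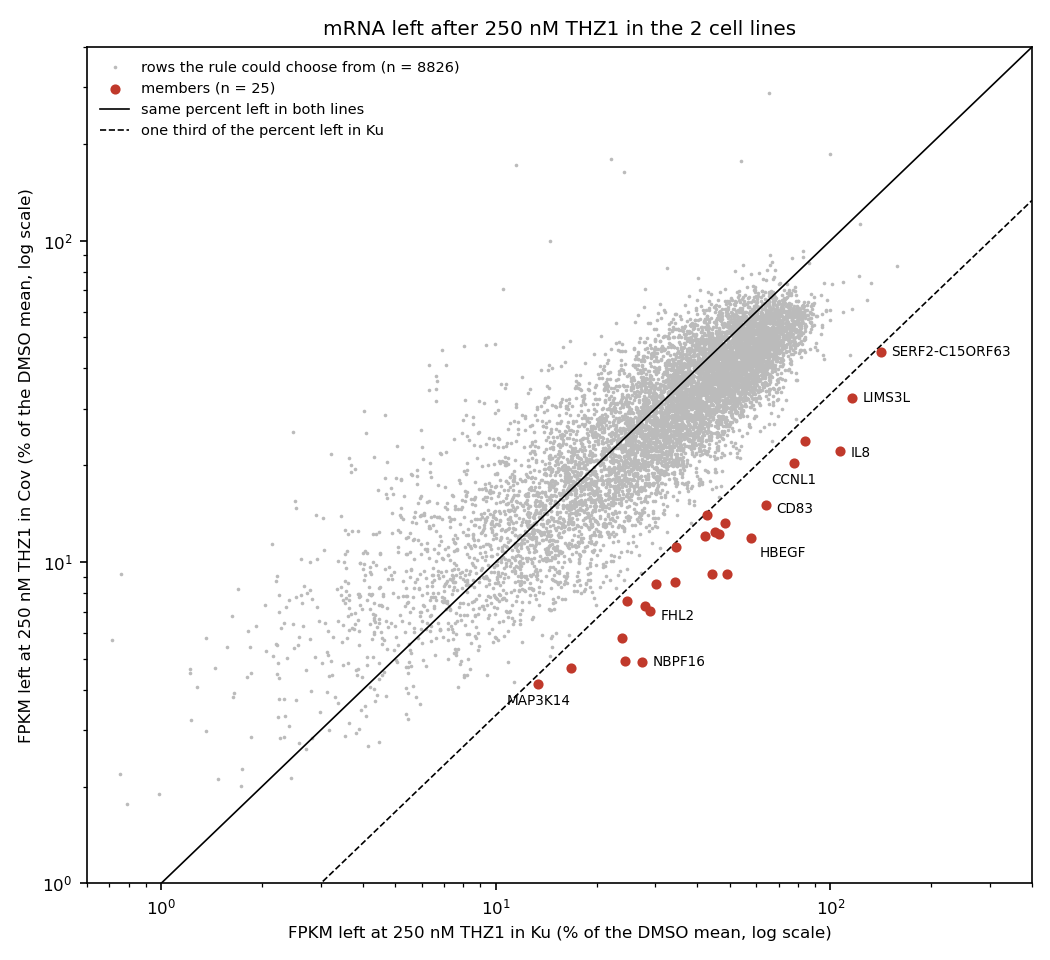
Each point is a gene, placed by the percentage of its DMSO mean FPKM that was left at 250 nM THZ1 in Ku (x axis, log scale) and in Cov (y axis, log scale). The solid line marks equal shares and the dashed line 0.333 times the Ku share. The 25 chosen genes (red) lie on or below the dashed line by their selection, and IL8, LIMS3L and SERF2-C15ORF63 lie at over 100% in Ku.

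Whether the lines also differed at the lower dose could be examined in libraries that the selection did not use, although the same DMSO libraries enter both. At 50 nM the 25 genes left 38.4% of the DMSO mean in Cov and 81.5% in Ku in the median, against 50.2% and 72.3% for all 8826 genes. Both 50 nM libraries lay below both DMSO libraries for all 25 genes in Cov, which held for 99.4% of genes, and for 13 of 25 in Ku, which held for 78.7%. In Ku, both 50 nM libraries lay above both DMSO libraries for HBEGF, TRAF5, CD83, CLK1, LIMS3L and GTF2B, 6 of 25, where 2.81% of genes did so. On the spike-in scale these 6 genes were thus above their DMSO level in one line and below it in the other at the same dose. When libraries were brought to equal median FPKM instead, or scaled by median of ratios, the change in Cov turned positive for all of them but TRAF5. LIMS3L shares sequence with LIMS3, and for the sum of both rows the 50 nM and DMSO libraries overlapped in Ku.

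Log2 changes of FPKM + 1 were tested with limma across all active genes, and a gene was called where the adjusted p was under 0.001 and the change went beyond 0.5 on the log2 scale. In Cov, 19 of the 25 genes were called lower at 50 nM, close to the 70.5% of all active genes. In Ku, IL8 and HSPA8 were called lower, 2 of 25, and 11.3% of active genes were, and neither was called once any 1 Ku library was left out. The difference between the lines, tested as the change in Cov minus the change in Ku, was called for 6 of 25 genes, HBEGF, TRAF5, FHL2, SLC20A1, MICB and MAP3K14, all with the larger fall in Cov, against 2.03% of active genes. The median log2 change was -1.29 in Cov and -0.28 in Ku, and the median difference was -1.09. For all active genes these medians were -0.85, -0.40 and -0.43, so 19 of the 25 genes lay below the median gene in Cov, 14 lay above the median gene in Ku, and 24 lay below the median difference. The exception in the last count was SCHIP1. Equal median FPKM removes the common fall by construction. Under this scaling limma called the difference for 1 of the 25 genes at 0.001. At an adjusted p under 0.05 with the same log2 limit, it called 11, against 2.94% of active genes.

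The 6 calls of a difference were not stable to the removal of 1 library. Removing any 1 library lowered the number of calls. All were lost without Cov DMSO replicate 2, Cov 50 nM replicate 1 or either Ku 50 nM replicate. With a pseudocount of 0.1, or with only the groups compared in the fit, 0 of the 25 genes were called as well. In each of these fits with 0 genes called, 22 or 23 of the 25 genes had a larger fall in Cov at an unadjusted p under 0.05 from limma, as did 44.4% to 57.3% of active genes. Under the looser threshold of an adjusted p under 0.05, limma called a larger fall in Cov for 22 of 25 genes (38.8% of active genes). This count was 21 to 23 whichever library was left out, but 11 under equal median FPKM (2.94% of active genes) and 13 under median of ratios (4.06%). The genes not called on the spike-in scale were PTX3, SERF2-C15ORF63 and SCHIP1. PTX3 had a limma adjusted p of 0.0214 and missed only the log2 limit, with a difference of -0.489. At this threshold 22 of 25 were lower in Cov (82.0% of active genes) and 8 were lower in Ku (40.2%), whereas HBEGF, LIMS3L and GTF2B were higher in Ku (0.618%). Among the 9384 genes above 10 FPKM in at least 1 library, 90% were lower in Cov, 42% were lower in Ku and 44.3% had a larger fall in Cov. The Cov count became 5 under equal median FPKM (8.03% of active genes) and 8 under median of ratios (12.7%), and the Ku count 0 (10.7%) and 1 (13.7%). At an unadjusted p under 0.05 from limma, the Ku count was 1 (19.7%) and 3 (26.7%) under these scalings. With 1 library left out, the Cov count was 20 to 23 and the Ku count 4 (without Ku DMSO replicate 1) to 11 (without Ku DMSO replicate 2). An exact two-sided permutation test has 0.333 as its smallest p with 2 libraries a group, so all calls depend on the spread that limma shares among genes.

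**Figure D2:**
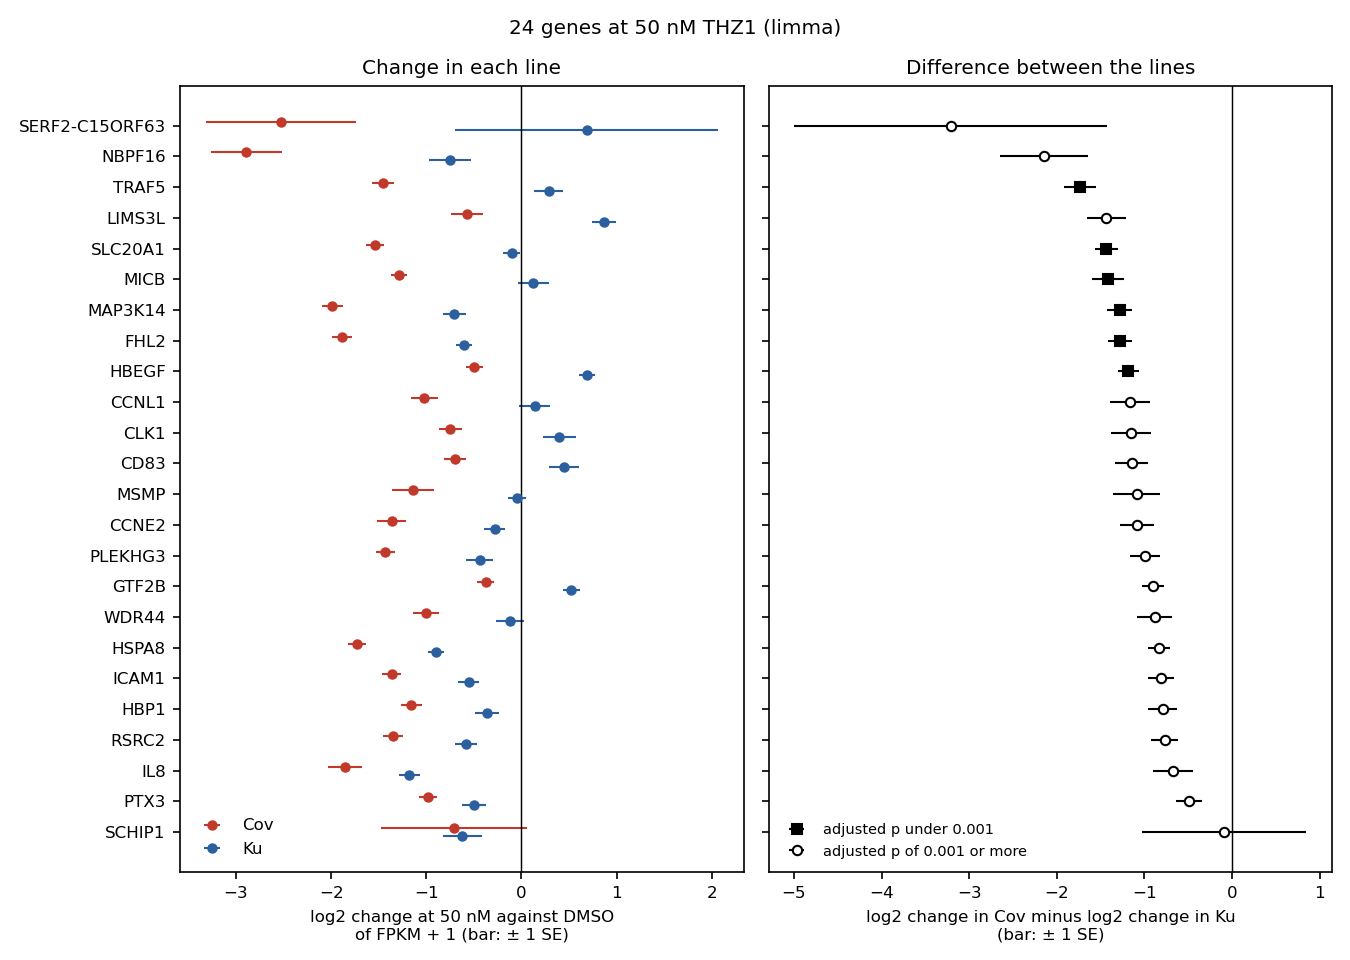
The left panel gives the log2 change of FPKM + 1 at 50 nM THZ1 against DMSO in Cov (red) and Ku (blue) for 24 genes, and the right panel the change in Cov minus the change in Ku, with bars of 1 SE from limma (n = 2 libraries a group). Filled squares are the 6 differences called at an adjusted p under 0.001. All 24 differences are below 0, and the widest bars belong to SERF2-C15ORF63, SCHIP1 and NBPF16.

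The first group of genes acts in NF-kB signalling and inflammation. TRAF5 is an adaptor of TNF receptor family members. In Cov it was at 9.96 and 10.5 FPKM in DMSO, at 2.76 and 3.49 FPKM at 50 nM and at 0.941 and 0.934 FPKM at 250 nM. In Ku it was at 8.01 and 6.36 FPKM, at 9.66 and 8.25 FPKM and at 3.19 and 3.16 FPKM. The DMSO levels were thus close on the 2 scales, and at 50 nM both Cov libraries were below their DMSO libraries while both Ku libraries were above theirs. The log2 change at 50 nM was -1.45 ± 0.11 (SE) in Cov and 0.29 ± 0.15 in Ku, a difference of -1.74 ± 0.18 (adjusted p = 0.000388, limma).

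MAP3K14 encodes NIK, the kinase that starts the non-canonical NF-kB pathway. Its FPKM were 17.1 and 18.1 in DMSO, 3.70 and 3.66 at 50 nM and 0.598 and 0.867 at 250 nM in Cov, against 9.25 and 8.49, 5.05 and 5.04, and 1.20 and 1.17 in Ku. The gene was lower at each dose step in both lines with no overlap, and at 50 nM the lines differed by -1.28 ± 0.14 (adjusted p = 0.00042, limma). It left 4.16% in Cov and 13.4% in Ku at 250 nM, the lowest value of the 25 genes in either line.

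Among the 25 genes, IL8 had a course of its own in Ku. In Cov it was at 129.8 and 151 FPKM in DMSO, at 32.8 and 44.1 FPKM at 50 nM and at 35.4 and 27.0 FPKM at 250 nM. In Ku it was at 75.8 and 62.2 FPKM in DMSO, at 31.3 and 28.4 FPKM at 50 nM and at 74.9 and 72.8 FPKM at 250 nM. The 50 nM libraries were below DMSO in both lines, but in Ku the 250 nM libraries were above the 50 nM libraries and within the range of DMSO. No other gene of the 25 had both Ku libraries at 250 nM above both at 50 nM. At 50 nM the lines differed by -0.67 ± 0.23 on the log2 scale, which was not called at 0.001 (adjusted p = 0.0345, limma). The share left of IL8 in Ku was 43.2% at 50 nM and 107% at 250 nM, and in Cov it was 27.4% and 22.2%. CCL2, a chemokine gene outside the choice with a ratio of shares of 0.356, also left more at 250 nM than at 50 nM in Ku. Its shares left were 0.501 at 50 nM and 0.668 at 250 nM in Ku, and 0.303 and 0.238 in Cov.

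ICAM1, an adhesion molecule for leukocyte integrins, left 8.68% in Cov and 34.3% in Ku at 250 nM, and in both lines its libraries were lower at each dose step without overlap. CD83, a surface protein of the immunoglobulin superfamily known from mature dendritic cells, was at 18.2 and 20.6 FPKM in Cov DMSO libraries and at 10.5 and 12.7 FPKM at 50 nM. In Ku, CD83 was at 6.18 and 4.63 FPKM in DMSO and at 7.40 and 7.92 FPKM at 50 nM, so on the spike-in scale the order of DMSO and 50 nM was opposite in the 2 lines (difference -1.15 ± 0.19, adjusted p = 0.00225, limma). The log2 change of CD83 in Cov was -0.70 ± 0.12 and became 0.44 under equal median FPKM and 0.26 under median of ratios. PTX3, a secreted pentraxin of innate immunity, was the gene with the most unequal start, at 139.9 ± 9.74 FPKM (SD, n = 2) in Cov and at 17.1 ± 2.36 FPKM in Ku. Its change at 50 nM was -0.99 ± 0.09 in Cov and -0.50 ± 0.13 in Ku. These became 0.23 and 0.16 under equal median FPKM and 0.034 and 0.025 under median of ratios, and the difference became 0.065 and 0.0090.

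MICB is a stress-induced ligand of the natural killer cell receptor NKG2D. Its FPKM in Cov were 39.7 and 42.1 in DMSO, 15.8 and 16.6 at 50 nM and 5.03 and 4.96 at 250 nM, and in Ku 20.5 and 14.9, 20.5 and 17.9, and 8.10 and 8.29. In Ku the 50 nM and DMSO libraries overlapped, whereas in Cov they lay below 0.5 times each DMSO library (difference -1.41 ± 0.18, adjusted p = 0.000871, limma). MICA, its close paralog, was not among the 25 genes and left 60.4% in Cov and 90.7% in Ku at 50 nM and 43.3% and 54.1% at 250 nM. MICA and MICB are similar enough in sequence that reads could have been divided between them, and how the authors' counting treated such reads is not given in the sources used here.

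A list of 37 NF-kB targets and chemokines, of which 34 were active, holds IL8, CD83 and ICAM1. At 50 nM, 26 of the 34 (76.5%) were called lower in Cov and 8 (23.5%) in Ku, against 70.5% and 11.3% of all active genes. The difference between the lines was called for 3 (8.82%), against 2.03%, and IL8, CD83 and ICAM1 were not among them. The median difference over the list was -0.52, against -0.43 for all active genes. At 250 nM the median ratio of shares over the 25 listed genes that could be chosen was 0.79, with 16 of 25 (64%) below 1. Over all 8826 genes the median ratio was 0.869, and 66.5% of ratios were below 1.

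The second group consists of growth factor, adhesion and transport genes. HBEGF was at 17.9 and 17.8 FPKM in Cov DMSO libraries, at 12.2 and 12.5 FPKM at 50 nM and at 2.04 and 2.20 FPKM at 250 nM. In Ku it was at 29.5 and 28.2 FPKM in DMSO, at 49.2 and 44.8 FPKM at 50 nM and at 17.5 and 15.9 FPKM at 250 nM. HBEGF thus had its highest level at 50 nM in Ku and at DMSO in Cov, and no dose overlapped with another in either line. Its log2 change at 50 nM was -0.50 ± 0.09 in Cov and 0.69 ± 0.09 in Ku, a difference of -1.18 ± 0.12 (adjusted p = 0.000302, limma). The change in Cov was smaller than that of the median active gene, and it turned positive under equal median FPKM. In the list of ERK pathway feedback genes to which HBEGF belongs, the median ratio of shares at 250 nM was 1.61 and 5 of 19 genes (26.3%), HBEGF among them by its selection, were below 1, against 0.869 and 66.5% for all 8826 genes. At 50 nM, 25 of its 28 active genes (89.3%) were called lower in Cov and 3 (10.7%) in Ku, against 70.5% and 11.3% of active genes. The difference was called for 3 (10.7%), HBEGF included, against 2.03%, and the median difference was -0.55, against -0.43.

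FHL2 is a LIM-domain cofactor of transcription and of integrin signalling. It was at 70.2 and 74.3 FPKM in Cov DMSO libraries and at 17.3 and 20.5 FPKM at 50 nM, against 118 and 103 FPKM and 75.3 and 68.8 FPKM in Ku. Doses did not overlap in either line, and the difference at 50 nM was -1.28 ± 0.14 (adjusted p = 0.000451, limma). SLC20A1, a sodium-dependent phosphate transporter, was at 126 and 141 FPKM in Cov DMSO libraries and at 42.6 and 47.8 FPKM at 50 nM. In Ku, SLC20A1 was at 60.4 and 53.2 FPKM in DMSO and at 54.3 and 51.1 FPKM at 50 nM, which overlap, and the difference between the lines was -1.43 ± 0.13 (adjusted p = 0.000227, limma). Of the 252 active solute carrier and ABC transporter genes, 185 (73.4%) were called lower in Cov at 50 nM, 35 (13.9%) in Ku and 4 (1.59%) for the difference with the larger fall in Cov, all near the 70.5%, 11.3% and 2.03% of all active genes.

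PLEKHG3, a guanine nucleotide exchange factor, and WDR44, a RAB11-binding protein, left 5.81% and 12.1% in Cov and 23.9% and 42.1% in Ku at 250 nM. MSMP encodes a small secreted microseminoprotein. Its Ku libraries were at 40.0 and 38.4 FPKM in DMSO, at 38.5 and 37.0 FPKM at 50 nM and at 35.6 and 30.1 FPKM at 250 nM, and DMSO and 50 nM overlapped. In Cov it was lower at the start, at 6.57 and 8.60 FPKM, and reached 2.31 and 1.31 FPKM at 250 nM. MSMP lies within RGP1 on the opposite strand, and reads of both genes can be told apart only where strand was used in counting, which the sources used here do not give. RGP1 left 21.9% in Cov and 12.7% in Ku at 250 nM, an order opposite to that of MSMP. PTX3 likewise lies within VEPH1 on the opposite strand, which left 36.3% in Cov and 49.2% in Ku.

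The third group makes or processes mRNA. GTF2B was at 29.6 and 30.2 FPKM in Cov DMSO libraries, at 22.3 and 23.3 FPKM at 50 nM and at 2.72 and 2.38 FPKM at 250 nM. In Ku it was at 39.2 and 37.5 FPKM, at 59.4 and 51.9 FPKM and at 11.7 and 11.3 FPKM. Like HBEGF, GTF2B was above DMSO at 50 nM in Ku, and in Cov it was far lower at 250 nM than at 50 nM. The change at 50 nM was -0.38 ± 0.09 in Cov and 0.52 ± 0.09 in Ku, with a difference of -0.90 ± 0.12 (adjusted p = 0.00109, limma).

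CLK1 showed the same order of doses. It was at 24.7 and 24.5 FPKM in Cov DMSO libraries, at 12.7 and 16.0 FPKM at 50 nM and at 3.08 and 3.001 FPKM at 250 nM. In Ku it was at 47.5 and 41.9 FPKM, at 63.8 and 54.8 FPKM and at 16.5 and 23.8 FPKM. The difference at 50 nM was -1.15 ± 0.23 (adjusted p = 0.0041, limma). CLK4, a second CLK kinase, left 37.3% in Cov and 77.3% in Ku at 50 nM. At 250 nM it left 12.5% and 28.6%, a ratio of shares of 0.438, which is on the same side as CLK1 but above the limit of 0.333, so CLK4 was not chosen.

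CCNL1 encodes cyclin L1, a partner of CDK11 in splicing. It left 20.3% in Cov and 77.5% in Ku at 250 nM, whereas CCNL2, its paralog, left 56.1% and 64.2% (74.9% and 101% at 50 nM). Within the list of transcription cyclins and kinases, 14 of 21 genes (66.7%) were called lower in Cov at 50 nM and 3 (14.3%) in Ku, near the 70.5% and 11.3% of all active genes. The difference was called for 0, against 2.03%, and 12 had a larger fall in Cov at an unadjusted p under 0.05 from limma, against 57.0%. At 250 nM the median ratio of shares was 0.87, and 14 of 19 ratios (73.7%) were below 1, against 66.5% of all 8826 genes. RSRC2, a serine- and arginine-rich protein, left 4.68% in Cov and 16.8% in Ku and was lower at each dose step in both lines. HBP1, an HMG-box repressor of transcription, left 11.1% and 34.5%.

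The remaining genes with a row of their own are CCNE2 and HSPA8. CCNE2 encodes cyclin E2, a partner of CDK2 at the start of S phase. Its FPKM in Cov were 14.6 and 17.3 in DMSO, 5.26 and 5.87 at 50 nM and 1.00 and 0.564 at 250 nM, and in Ku 42.4 and 34.96, 32.7 and 30.4, and 9.29 and 9.53. All doses were separate in both lines. At 50 nM CCNE2 left 34.9% in Cov and 81.5% in Ku, and CCNE1, which encodes cyclin E1, left 42.6% and 90.5%. At 250 nM the order of the lines was opposite for CCNE1, which left 10.2% in Cov and 6.96% in Ku. Over the cell cycle list the median ratio of shares was 0.96, with 20 of 35 genes (57.1%) below 1, against 66.5% of all 8826 genes. At 50 nM, 34 of its 40 active genes (85%) were called lower in Cov, 12 (30%) in Ku and 1 (2.5%) for a larger fall in Cov, against 70.5%, 11.3% and 2.03% of active genes.

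HSPA8 encodes HSC70, the constitutive cytosolic chaperone of the HSP70 family, and was the most abundant of the 25 genes. It was at 1278 and 1419 FPKM in Cov DMSO libraries, at 386 and 426 FPKM at 50 nM and at 104 and 99.2 FPKM at 250 nM. In Ku it was at 1967 and 1743 FPKM, at 1021 and 969 FPKM and at 473 and 444 FPKM. The libraries were lower at each dose step in both lines, and the changes at 50 nM of -1.73 ± 0.10 in Cov and -0.90 ± 0.08 in Ku were both called (adjusted p = 2.16e-05 and 0.000641, limma). The call in Ku was lost when any 1 Ku library was left out. Their difference of -0.83 ± 0.12 was not called at 0.001 (adjusted p = 0.00152, limma). In the heat shock list, the median ratio of shares at 250 nM was 0.69 and 15 of 19 genes (78.9%) were below 1, against 0.869 and 66.5% for all 8826 genes. At 50 nM, 12 of its 20 active genes (60.0%) were called lower in Cov and 3 (15%) in Ku, against 70.5% and 11.3% of active genes, and limma called the difference for 0 (17 had a larger fall in Cov at an unadjusted p under 0.05, as did 57.0% of active genes).

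**Figure D3:**
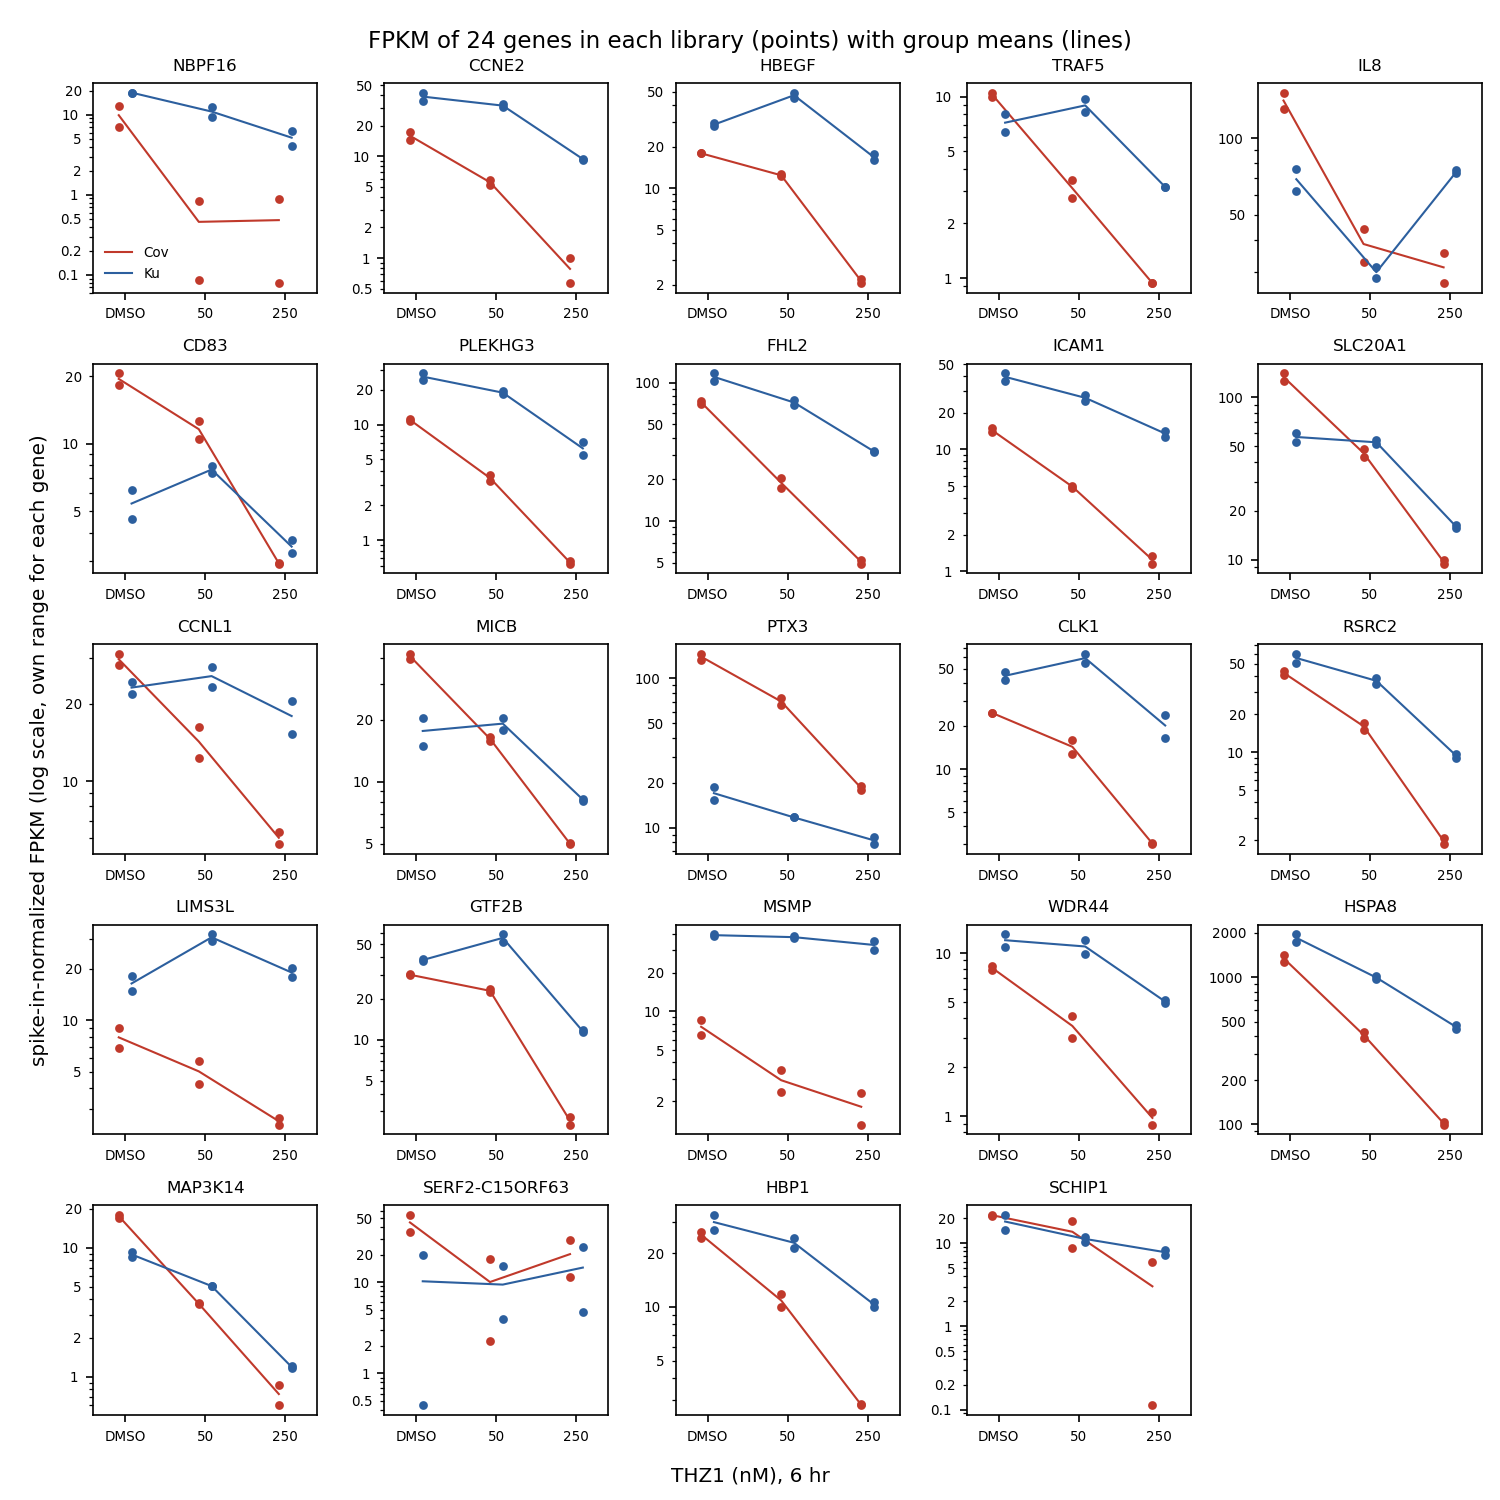
Each panel shows 1 of 24 genes, with the FPKM of every library (points, log scale, own range for each panel) and the group means (lines) at DMSO, 50 nM and 250 nM THZ1 in Cov (red) and Ku (blue). HBEGF, TRAF5, CD83, CLK1, LIMS3L and GTF2B lie above their DMSO libraries at 50 nM in Ku, IL8 returns to its DMSO level at 250 nM in Ku, and the replicates of SERF2-C15ORF63, SCHIP1 and NBPF16 lie far apart.

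Of the 25 rows, 4 share exons or near-identical sequence with another row, so that their values depend on how reads were divided. SCHIP1 lies within the readthrough row IQCJ-SCHIP1. In Cov at 250 nM its replicates were at 5.94 and 0.112 FPKM, and those of IQCJ-SCHIP1 at 10.97 and 15.8 FPKM, whereas the sums were 16.9 and 15.9 FPKM. The replicates thus differed by row and hardly by sum, and the summed rows left 27.9% in Cov and 40.5% in Ku. For SERF2-C15ORF63, a readthrough row that shares sequence with HYPK, the Ku DMSO replicates were at 0.447 and 19.99 FPKM, and the sums with HYPK at 47.9 and 43.2 FPKM. Its share left of 141% in Ku was 62.5% for the sum.

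NBPF16, of the neuroblastoma breakpoint family with many near-identical copies, had the lowest ratio of all 8826 genes, but its Cov replicates were at 6.99 and 12.7 FPKM in DMSO and at 0.0783 and 0.887 FPKM at 250 nM. Summed with NBPF15 it left 22.3% in Cov and 32.7% in Ku. LIMS3L was at 18.1 and 14.7 FPKM in Ku DMSO libraries and at 31.9 and 29.1 FPKM at 50 nM, but its sum with the near-identical copy LIMS3 was at 83.4 and 73.9 FPKM in DMSO and at 83.3 and 76.1 FPKM at 50 nM, which overlap. At 250 nM this sum left 24.3% in Cov and 60.4% in Ku. The ratios of shares of the 4 sums were 0.690 for SCHIP1, 0.745 for SERF2-C15ORF63, 0.680 for NBPF16 and 0.403 for LIMS3L. None of these 4 sums would have been chosen, which leaves 21 genes. MICB and MICA, which may also share reads, were not summed.

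**Figure D4:**
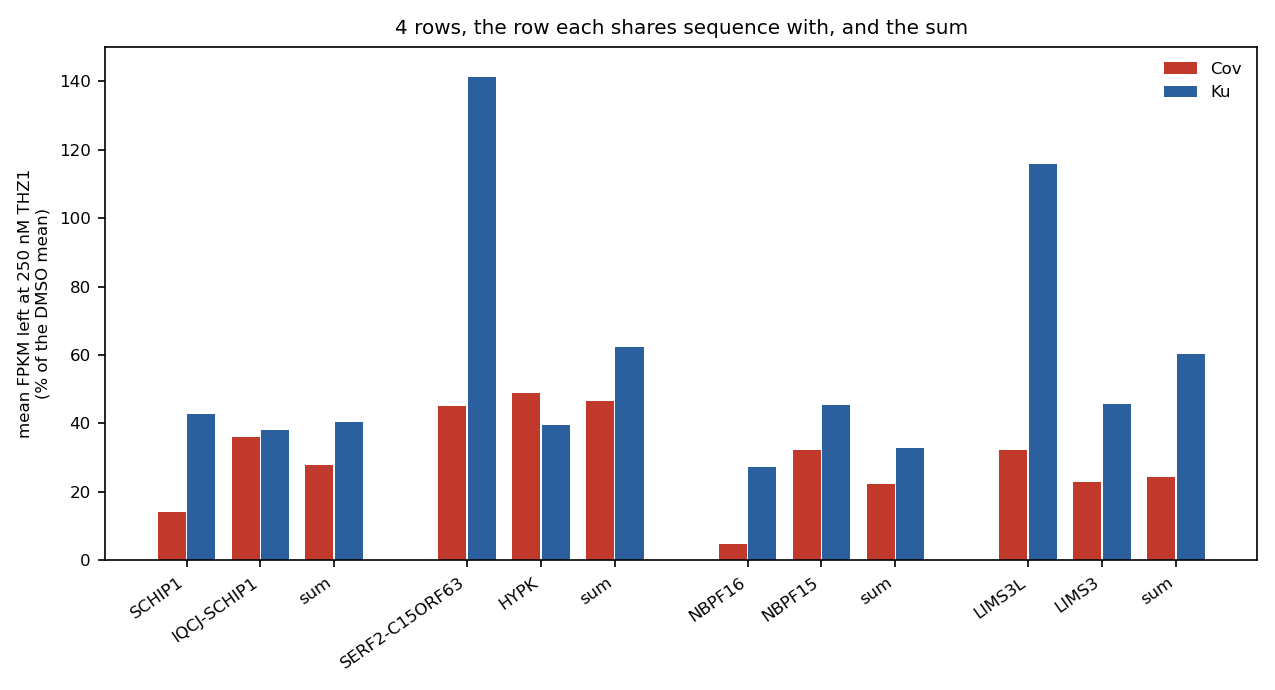
Bars give the mean FPKM left at 250 nM THZ1 as a percentage of the DMSO mean in Cov (red) and Ku (blue) for 4 chosen rows, for the row each shares sequence with, and for the sum of both rows (n = 2 libraries a group). The red and blue bars of each sum lie closer to each other, in ratio, than those of the chosen row, and the Ku bar of SERF2-C15ORF63 is at 141% and that of its sum at 62.5%.

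When each of the 8 DMSO and 250 nM libraries was left out in turn, 18 of the 25 genes were chosen every time. MAP3K14, CD83, CLK1 and MSMP were chosen 7 times, HBP1 6 times, SCHIP1 5 times and SERF2-C15ORF63 3 times.

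The genes were also described by their structure and promoters, which the selection did not use. Of the 25 names, 23 were found in the GENCODE annotation of GRCh37, all protein-coding, and the other 2 were LIMS3L and SERF2-C15ORF63. The median gene span was 17.9 kb, against 31.1 kb for the genes that could be chosen, and 14 of 23 (60.9%) spanned under 20 kb, against 36.6%. The median number of exons was 9 in both. The shortest was IL8 with 3.198 kb at chr4:74606236-74609433, and the longest WDR44 with 104 kb on chromosome X. CCNL1 and PTX3 lie 276 kb apart on chromosome 3, and no other pair lay within 1 Mb. These are descriptions, and whether span bears on the difference between the lines was not tested.

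Promoter windows of 250 bases before the start, from RefSeq on GRCh38.p14, were matched for 21 of the 25 genes, with 34 windows. TATAAA was searched on both strands and stood in 8 of the 34 windows (23.5%), some of which overlap within a gene, against 10.7% of all 35116 windows. On the strand of the gene and starting 35 to 25 bases before the start, where a TATA box acts, it stood in the windows of IL8, ICAM1, GTF2B and MSMP, against 2.17% of all windows. The NF-kB letters GGAATTTCC stood in 2 windows, those of IL8 and ICAM1, against 0.413% of all windows. The 200 bases before the start of these 4 genes are shown, 5′ to 3′ on the strand of the gene, because they carry TATAAA at this position and, in IL8 and ICAM1, the NF-kB letters. TATAAA and the NF-kB letters (on either strand) are in capitals. The windows lie on the plus strand for IL8 at chr4:73740369-73740568 and ICAM1 at chr19:10270920-10271119 and on the minus strand for GTF2B at chr1:88891568-88891767 and MSMP at chr9:35754277-35754476.
IL8: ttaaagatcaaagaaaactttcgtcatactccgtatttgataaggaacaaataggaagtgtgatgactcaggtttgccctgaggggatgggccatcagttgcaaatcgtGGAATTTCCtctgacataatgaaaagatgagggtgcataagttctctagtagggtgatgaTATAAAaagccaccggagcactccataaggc
ICAM1: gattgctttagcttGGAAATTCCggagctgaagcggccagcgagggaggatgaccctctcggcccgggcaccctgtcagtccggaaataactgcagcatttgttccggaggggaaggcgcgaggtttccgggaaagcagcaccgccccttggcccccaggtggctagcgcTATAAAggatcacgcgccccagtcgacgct
GTF2B: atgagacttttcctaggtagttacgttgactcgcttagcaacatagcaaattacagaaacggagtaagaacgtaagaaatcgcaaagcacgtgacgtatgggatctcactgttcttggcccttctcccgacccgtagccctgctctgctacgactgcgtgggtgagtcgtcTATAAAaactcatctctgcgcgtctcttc
MSMP: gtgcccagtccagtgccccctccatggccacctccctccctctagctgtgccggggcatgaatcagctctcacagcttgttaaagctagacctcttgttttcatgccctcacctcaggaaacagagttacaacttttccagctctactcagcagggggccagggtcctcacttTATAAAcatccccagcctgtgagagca

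The other motifs were searched in the same windows and on both strands. The E-box CACGTG stood in 6 of the 34 windows, against 6.35% of all windows. They belong to 4 of the 21 matched genes, FHL2, GTF2B, SLC20A1 and TRAF5. The overlapping windows of FHL2, and those of TRAF5, hold the same site counted again. The GC box GGGCGG stood in 19 windows (42.6% of all windows) and CCAAT in 13 (32.0%). The AP-1 letters TGACTCA were in the IL8 window alone (4.20%), the CRE TGACGTCA in that of CCNL1 (1.65%), the ETS letters CCGGAAG in that of WDR44 (8.52%) and the YY1 letters AAGATGGC in that of HBP1 (1.36%). Of the genes shown above, ICAM1 was below its DMSO libraries in Ku at 250 nM and IL8 was not. GTF2B was above DMSO at 50 nM in Ku. The motifs were not tested against the response.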

How the data were processed

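RNA-seq was done on 12 libraries, 6 from KURAMOCHI (Ku) and 6 from COV362 (Cov), with 2 for each of DMSO, 50 nM and 250 nM THZ1 over 6 hr (polyA RNA, stranded TruSeq libraries, single-end reads of 75 bases). Per the submitters' processing notes, HISAT, Cufflinks and Cuffnorm were used with hg19, with no versions given. The authors deposited FPKM, scaled by them to ERCC spike-ins that had been added to RNA taken per cell number, as a separate table for each line with 23713 rows. Which strand setting was used for counting is not given in the sources used here. Depth is unknown, so no counting interval is given. Groups came from the sample labels.

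The genes and the lists used here were chosen with earlier results of these data known. The share left is the mean FPKM at a dose divided by the mean in DMSO, and ERCC rows and 88 rows of small RNAs were left out. The 250 nM contrast chose the genes and was not tested. The 50 nM contrasts share the DMSO libraries with the choice. They were tested on log2(FPKM + 1) with limma 3.58.1 (lmFit, eBayes with trend, two-sided) in R 4.3.3, 1 fit per line over its 6 libraries, after a check on simulated data. The edgeR test of the study needs counts and was not used. The difference between lines was fitted over all 12 libraries with a group for each condition. Benjamini-Hochberg adjustment ran over 14251 active genes, and the thresholds are those of the study. All chosen genes are named, which is the rule for 25 or fewer, except 1 that is not reported here and stays in the counts. MICA, CCNE1, CCNL2, CLK4, CCL2 and the overlapping genes were named after their values were seen. The NF-kB motif, the TATA position and the summed rows were likewise added after the data were seen. Annotation was GENCODE v44 on GRCh37 and RefSeq promoters on GRCh38.p14. Tables and figures were made with pandas 2.3.3 and matplotlib 3.10.9 in Python 3.11.15.

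Same-numbered replicates did not deviate together (correlations of deviations between -0.07 and 0.03 across groups), so the number was not used as a block. Alternatives were a pseudocount of 0.1, a minimum of 10 FPKM or none, scaling to equal median FPKM or by median of ratios, no trend, only the groups compared, the replicate block, other thresholds and each library left out.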

Additional observations from a re-analysis of the deposited data

Results flagged for a closer look

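At 50 nM THZ1, the test of the difference itself gave a larger fall in Cov than in Ku for 6 of the 25 genes, against 2.03% of active genes, which is what singled them out. With any 1 library left out fewer or none of them were called, and 0 with a pseudocount of 0.1, with only the groups compared or with the replicate block (limma). In each of these last 3 fits 23 of the 25 genes had an unadjusted p under 0.05 from limma, as did 52.5% to 57.3% of active genes, counting larger falls in Cov. On the log2 scale, the change in Cov minus the change in Ku was -1.18 for HBEGF, -1.74 for TRAF5, -1.28 for FHL2, -1.43 for SLC20A1, -1.41 for MICB and -1.28 for MAP3K14. All 6 belong to a choice of genes made on the 250 nM libraries and on the same DMSO libraries. On the spike-in scale, the changes of FHL2, SLC20A1 and MAP3K14 were negative in both lines. In Ku, equal median FPKM turned that of FHL2 to 0.092 and that of SLC20A1 to 0.59, and median of ratios turned that of SLC20A1 to 0.44. The changes of HBEGF, TRAF5 and MICB were negative in Cov and positive in Ku, but in Ku the change was 0.29 ± 0.15 (SE; limma adjusted p = 0.158) for TRAF5 and 0.13 ± 0.16 (limma adjusted p = 0.532) for MICB. With 1 library left out, that of MICB ranged from -0.090 to 0.34, and the change of HBEGF in Cov became 0.64 under equal median FPKM. Groups of 2 libraries were too small for a test of single outlying libraries.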

How the results depend on the processing

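The number of chosen genes, 25, was 49 with a DMSO mean of at least 1 FPKM, 220 with a ratio of at most 0.5, 9 with at most 0.25 and 11 when 1 was added to each FPKM. It was between 23 and 36 with 1 library left out, and 18, 22, 20 and 21 with a DMSO mean of at least 10, equal medians, median of ratios and summed rows.

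Of the counts called at 50 nM by limma, the 19 genes lower in Cov became 0 under equal medians and 1 under median of ratios, and ranged from 11 (without Cov DMSO replicate 2) to 20 with 1 library left out. The 2 genes lower in Ku became 8 at an adjusted p under 0.05, 1 beyond a log2 change of 1, and 0 with no minimum FPKM, either rescaling, no trend, only the groups compared, or any Ku library left out. The 6 larger falls in Cov became 22 at 0.05, 3 with no minimum FPKM, 1 under equal medians, 2 under median of ratios, 0 with a pseudocount of 0.1 and only the groups compared, and 0 to 5 with 1 library left out. At 0.05 these 22 became 11 and 13 under the rescalings. Shares of active genes called at 0.001 are given only for the main fit. At 0.05, the share lower in Cov was 82.0% in the main fit, 8.03% with equal medians and 12.7% with median of ratios. In Ku it was 40.2%, 10.7% and 13.7%, and for the difference 38.8%, 2.94% and 4.06%. With the replicate block, 14 genes were lower in Cov, 2 in Ku and 0 fell more in Cov at 0.001, and 22, 8 and 22 at 0.05 (81.9%, 40.1% and 38.6% of active genes). Replicates share only a number. Causes of these moves were not tested, except that both rescalings remove the common fall by construction.

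Signs turned mainly under the rescalings. With equal medians, the log2 change in Cov became 0.64 for HBEGF, 0.44 for CD83, 0.14 for CCNL1, 0.23 for PTX3, 0.41 for CLK1, 0.47 for LIMS3L, 0.80 for GTF2B, 0.024 for WDR44 and 0.44 for SCHIP1. With median of ratios it became 0.46 for HBEGF, 0.26 for CD83, 0.034 for PTX3, 0.22 for CLK1, 0.30 for LIMS3L, 0.61 for GTF2B and 0.26 for SCHIP1. In Ku, equal medians gave 0.40 for CCNE2, 0.23 for PLEKHG3, 0.092 for FHL2, 0.13 for ICAM1, 0.59 for SLC20A1, 0.16 for PTX3, 0.11 for RSRC2, 0.63 for MSMP, 0.52 for WDR44, 0.31 for HBP1 and 0.038 for SCHIP1, and median of ratios gave 0.26 for CCNE2, 0.094 for PLEKHG3, 0.44 for SLC20A1, 0.025 for PTX3, 0.49 for MSMP, 0.39 for WDR44 and 0.17 for HBP1. The difference between lines became 0.065 for PTX3 and 0.40 for SCHIP1 with equal medians and 0.0090 for PTX3 and 0.35 for SCHIP1 with median of ratios. With 1 library left out, the change in Ku ranged from -0.090 to 0.34 for MICB, from -0.25 to 0.015 for WDR44 and from -1.25 to 2.61 for SERF2-C15ORF63, and the difference between lines from -0.59 to 0.42 for SCHIP1.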
